A study of Mus musculus with 10 samples.

Results

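The 10 genes described here, all commonly read out as targets of YAP and TAZ, were followed through a droplet single-cell RNA-seq series of mouse intestinal organoids and colonic crypts. They are Amotl2, Ajuba, Ptpn14, Nuak2, Ankrd1, Axl, Crim1, F3, Tgfb2 and Ccdc80, and all 10 were in the count table of 23810 genes. The members were chosen by name, with earlier results of these data known. For each of them the UMIs, the counted RNA molecules, were summed over the cells of every class that the authors had labelled in every library, and the question was which classes carry the rise in Hyper-organoids.

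The organoids were grown from crypts of the proximal small intestine of mice. ENR-organoids were kept in EGF, Noggin and R-Spondin 1. Hyper-organoids received EGF and FGF2, R-Spondin 1 as conditioned medium, the small molecules LDN193189, Pexmetinib and GSK-3 Inhibitor XV, and in addition VPA and EPZ6438. VPA blocks histone deacetylases, and EPZ6438 blocks EZH2, which methylates histone H3. -VE-organoids had the Hyper mixture without VPA and EPZ6438. There were 3 ENR libraries at passages 2, 7 and 3, 2 -VE libraries at passages 1 and 6, and 3 Hyper libraries at passages 1, 6 and 3. Replicates 1 and 2 of the Hyper- and -VE-organoids were derived from ENR-organoids, while replicate 3 of the ENR- and Hyper-organoids started from primary crypts. The colonic crypts gave 1 library from normal mice and 1 from mice treated with DSS, a chemical that injures the colonic epithelium.

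YAP and TAZ (encoded by Wwtr1) are transcriptional coactivators that are held in the cytoplasm when the Hippo kinase LATS, activated by MST, phosphorylates them. When the kinases are quiet, YAP and TAZ enter the nucleus, bind the TEAD transcription factors and switch on genes of growth, adhesion and matrix. In the intestine the pathway is largely dispensable for steady turnover and is known for its part in regeneration after injury. Several targets, among them Amotl2, Ajuba and Ptpn14, encode proteins that act back on the pathway.

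The 8 organoid libraries held 22139 kept cells, 89124015 to 170019527 UMIs per library and a median of 38173.5 to 50651.5 UMIs per cell. Levels are given as CPM, the UMIs of a gene scaled to a total of 1e+06 UMIs of the library or of the class, and 79 of 25124 barcode sequences were found in more than 1 library. The class labels were stem (SC), transit amplifying (TA), goblet (GC), enteroendocrine (EE), enterocyte (EC), enterocyte progenitor (EP), Paneth (PC), tuft (TC) and revival stem cells (RSC). The transit amplifying, enterocyte, enteroendocrine, Paneth and revival stem markers were highest in their own class in every library in which it could be checked, goblet markers in 7 of 8 and enterocyte progenitor markers in 4 of 5. The stem markers Lgr5, Ascl2, Olfm4 and Cd44 were highest in the SC class in 5 of 8 libraries. The exceptions were the 3 Hyper libraries, where the summed level was 923, 295 and 268 CPM in SC against 952, 299.7 and 283 CPM in TA, so that SC is used below as the authors' label of a class. SC made up 42.1% ± 2.02 (SD, n = 3) of Hyper cells and 12.2% ± 2.48 (n = 3) of ENR cells, TA 46.4% ± 3.82 and 38.8% ± 5.43. EP made up 27.02% ± 6.53 of ENR cells and 0.0976% ± 0.0111 of Hyper cells. RSC were absent from the labels of ENR libraries and numbered 5, 14 and 26 cells in the Hyper and 8 and 17 in the -VE libraries.

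TEAD factors bind the letters GGAATG, and these letters or their reverse complement CATTCC were searched in the 300 bases from 250 before to 50 after the start site of each gene (RefSeq, GRCm38.p6). Windows were available for 8 of the 10 members, and 6 of these 8 held the motif, beside 14.7% of all 32851 windows. The windows were not matched in base composition. The median ratio of observed to expected CpG, a C followed by a G, was 0.703 in member windows and 0.384 in all windows. The Tgfb2 and F3 windows did not hold these letters. The stretches around the matches are printed 5′ to 3′ on the strand of the gene, with the motif in capitals, because genes with the motif were found among those that rose and among those that did not.

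Ptpn14, chr1:189728095-189728154, plus strand: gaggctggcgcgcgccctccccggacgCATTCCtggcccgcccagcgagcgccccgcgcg
Ajuba, chr14:54577815-54577874, minus strand: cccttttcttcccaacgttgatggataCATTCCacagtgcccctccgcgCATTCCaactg
Amotl2, chr9:102717712-102717771, plus strand: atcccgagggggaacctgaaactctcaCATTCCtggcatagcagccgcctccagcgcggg
Crim1, chr17:78200142-78200201, plus strand: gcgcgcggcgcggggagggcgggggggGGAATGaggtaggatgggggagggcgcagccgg
Axl, chr7:25788934-25788983, minus strand: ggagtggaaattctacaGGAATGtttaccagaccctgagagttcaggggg
Ankrd1, chr19:36119935-36119994, minus strand: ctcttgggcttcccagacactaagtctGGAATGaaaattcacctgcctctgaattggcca

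The matches began 146 bases before the start site in Ptpn14, 186 and 164 in Ajuba, 65 in Amotl2, 79 in Crim1, 233 in Axl and 210 in Ankrd1, which has another match nearer to the start site that is the one shown. A match in a window describes letters and says nothing of binding in these cells. The gene coordinates given below are of the whole gene on GRCm38, as annotated by GENCODE. Their start can differ from the RefSeq start site used here, and the Amotl2 and Ankrd1 stretches printed above lie inside those genes.

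Over all cells, 5 of the 10 members were called higher in Hyper- than in ENR-organoids, where a call needs a change of 2-fold or more and an edgeR adjusted p under 0.05, namely Ptpn14, Ajuba, Tgfb2, Axl and Ccdc80, and none was called lower. Axl and Ccdc80, which had no UMI in ENR, passed the filter on low counts only through the Hyper libraries, where they are high, so their calls add no support to these counts. Of the 7 other members tested, 3 were called. Ankrd1 had too few UMIs to be tested. With these calls 18.2% of the 16037 genes tested were called higher. The median log2 difference was 1.43 over the 9 members tested and -0.01 over all genes. Axl and Ccdc80 lie above that median also at their bounds. Without these genes the middle value of the 7 others was that of F3, log2 0.83. Against -VE-organoids 4 members were called higher, Ptpn14, Tgfb2 and, with the same limit, Axl and Ccdc80, beside 16.1% of genes. Between -VE- and ENR-organoids no member was called, beside 1.35% of genes called higher. In edgeR 2 members had an unadjusted p under 0.05, beside 24% of genes in either direction, and DESeq2 called 1, beside 1.93%. Ajuba passed the p threshold alone (1.46-fold, edgeR adjusted p = 0.0413). The comparisons share libraries, so their counts are not independent of each other.

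**Figure D1:**
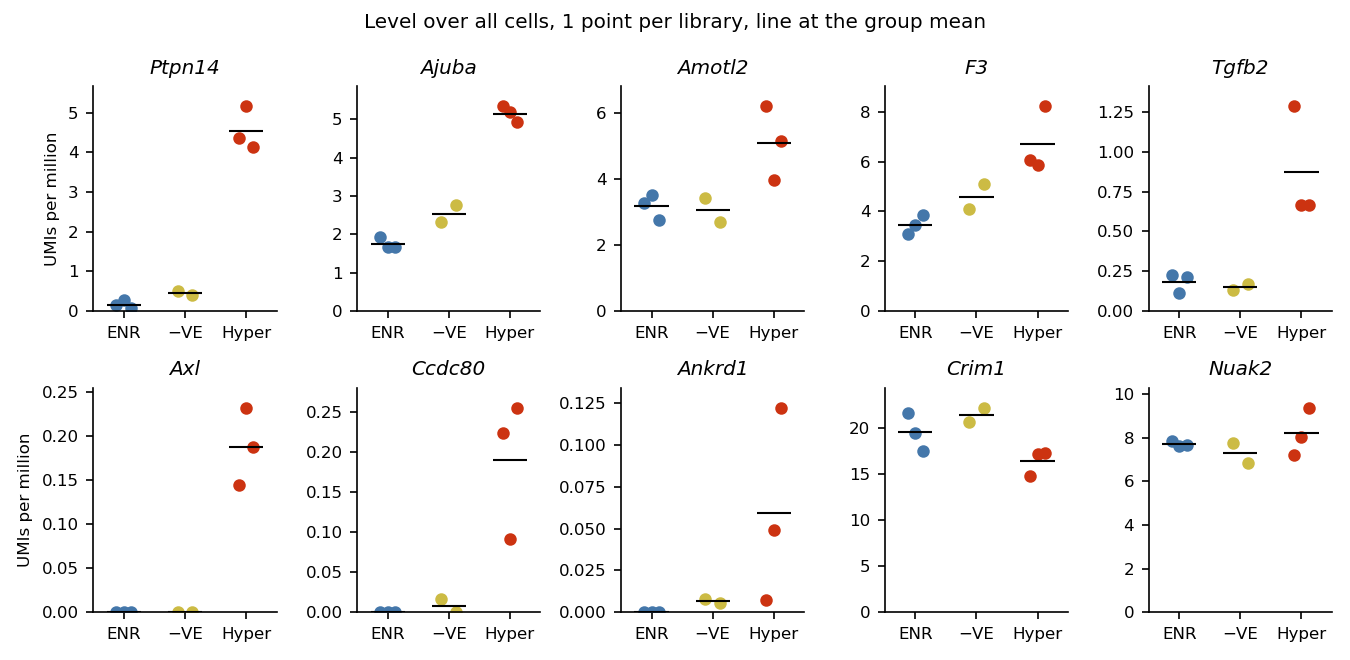
Level of each member over all cells (CPM, linear axis from 0), with 1 point per library and a line at the group mean, for 3 ENR, 2 -VE and 3 Hyper libraries. The Hyper points of Ptpn14, Ajuba, Amotl2, F3, Tgfb2, Axl and Ccdc80 all lie above every ENR and -VE point. The points of Nuak2 and Ankrd1 overlap, and the Hyper points of Crim1 lie below the others. How many of all genes separate in this way was not counted.

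Ptpn14 (ENSMUSG00000026604, chr1:189728268-189876695), a non-receptor tyrosine phosphatase that binds YAP and restrains it, showed the widest separation among the members with UMIs in all groups. It stood at 0.144, 0.269 and 0.0673 CPM in the ENR libraries, at 0.493 and 0.412 CPM in the -VE libraries and at 4.35, 5.16 and 4.13 CPM in the Hyper libraries. The 3 groups did not overlap, and all Hyper libraries were far above the rest. The rise was 25.1-fold over ENR (log2 4.65 ± 0.38 SE, edgeR adjusted p = 2.84e-05) and 9.16-fold over -VE (adjusted p = 0.000494). The -VE libraries stood 2.74-fold above ENR, which did not pass the edgeR test (adjusted p = 0.0663).

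Ajuba (ENSMUSG00000022178, chr14:54567472-54577558) encodes a LIM protein of cell junctions that binds LATS kinases. Its levels were 1.93, 1.66 and 1.67 CPM in ENR, 2.33 and 2.75 CPM in -VE and 5.34, 5.18 and 4.93 CPM in Hyper libraries. The groups were again separate, with -VE between the other two. Ajuba rose 2.69-fold over ENR (log2 1.43 ± 0.12 SE, edgeR adjusted p = 3.09e-05) and 1.84-fold over -VE (adjusted p = 0.00113).

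Amotl2 (ENSMUSG00000032531, chr9:102716672-102733418), an angiomotin that tethers YAP at junctions, differed less. It was at 3.26, 3.51 and 2.75 CPM in ENR, 3.42 and 2.69 CPM in -VE and 6.20, 3.97 and 5.15 CPM in Hyper libraries. All Hyper libraries were above all others, Hyper replicate 2 by little. The rise was 1.47-fold over ENR (edgeR adjusted p = 0.0304) and 1.52-fold over -VE (adjusted p = 0.0424). Leaving out 1 library brought the edgeR adjusted p over 0.05 for 4 of the libraries in the first comparison, with values up to 0.0900 without Hyper replicate 1.

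The secreted and surface members fell into a low and a high group. Tgfb2 (ENSMUSG00000039239, chr1:186622792-186705989), a TGF-beta ligand, was counted at 0.226, 0.114 and 0.213 CPM in ENR, 0.131 and 0.171 CPM in -VE and 1.29, 0.668 and 0.665 CPM in Hyper libraries. Hyper replicate 1 was the highest, and all Hyper libraries were above the rest. Tgfb2 rose 4.37-fold over ENR (edgeR adjusted p = 0.00177) and 5.21-fold over -VE (adjusted p = 0.00311). F3 (ENSMUSG00000028128, chr3:121723537-121735048), tissue factor, the receptor that starts blood clotting, stood at 3.08, 3.45 and 3.87 CPM in ENR, 4.08 and 5.11 CPM in -VE and 6.08, 5.87 and 8.22 CPM in Hyper libraries. It rose 1.77-fold over ENR (edgeR adjusted p = 0.00417), and its 1.33-fold difference from -VE over all cells did not pass (adjusted p = 0.117). Within SC F3 was 1.77-fold and within TA 1.69-fold above -VE (edgeR adjusted p = 0.0227 and 0.0135), both under the 2-fold limit of a call.

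Axl (ENSMUSG00000002602, chr7:25757273-25788705), a receptor tyrosine kinase, had no UMI in the 3 ENR and 2 -VE libraries and 20, 33 and 17 UMIs in the Hyper libraries, or 0.144, 0.232 and 0.188 CPM. Against a floor of 3 UMIs over each group this is at least 19.5-fold higher than in ENR and at least 18.4-fold higher than in -VE. Ccdc80 (ENSMUSG00000022665, chr16:45093402-45128077), a secreted matrix protein, had no UMI in ENR, 2 and 0 UMIs in -VE and 31, 13 and 23 UMIs in Hyper libraries, at least 18.6-fold higher than in ENR with the same floor. Its ratio to -VE was 26.4 with a counting interval of 7.02 to 222. Ankrd1 (ENSMUSG00000024803, chr19:36111961-36120099), an ankyrin-repeat protein best known from stretched heart muscle, had no UMI in ENR, 1 and 1 in -VE and 1, 7 and 11 in Hyper libraries. These intervals and floors cover counting error only.

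Markers of other cell types were counted at levels of the same size as Axl and Ccdc80. The summed level of 6 fibroblast markers was 0.0449 to 0.0895 CPM in ENR, 0.0647 to 0.107 CPM in -VE and 0.532 to 0.838 CPM in Hyper libraries, with 164 of the 257 Hyper UMIs from Col1a1 and 1 from Lum. The summed level of 5 leukocyte markers was 0.146 to 0.317 CPM in ENR and 0.591 to 1.46 CPM in Hyper libraries, with 345 of 373 Hyper UMIs from Coro1a and none from Ptprc or Tyrobp. The Hyper range also lay above the ENR range for 4 smooth muscle markers (0.419 to 0.698 against 0.267 to 0.285 CPM), and overlapped it for 6 macrophage markers (0.380 to 0.676 against 0.359 to 0.464 CPM) and 4 endothelial markers (0.443 to 0.746 against 0.314 to 0.483 CPM). Their part in the levels of Axl and Ccdc80 was not tested.

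Crim1 (ENSMUSG00000024074, chr17:78200248-78376592), a transmembrane protein that binds BMP ligands, went the other way. It was at 21.7, 19.5 and 17.6 CPM in ENR, 20.7 and 22.2 CPM in -VE and 14.8, 17.1 and 17.3 CPM in Hyper libraries. No Hyper library reached the lowest ENR or -VE library. Crim1 fell to 0.770 of its ENR level (log2 -0.38 ± 0.08 SE, edgeR adjusted p = 0.00553) and to 0.696 of its -VE level (adjusted p = 0.00268). Nuak2 (ENSMUSG00000009772, chr1:132316126-132333488), a kinase of the AMPK family that loosens LATS control of YAP, was at 7.85, 7.60 and 7.65 CPM in ENR, 7.77 and 6.83 CPM in -VE and 7.19, 8.04 and 9.36 CPM in Hyper libraries. The groups overlapped, and the Hyper to ENR difference was log2 -0.04 with a 95% interval of -0.26 to 0.18 (edgeR adjusted p = 0.795). The mean CPM was higher in Hyper (8.20 against 7.70), and the TMM scaling in edgeR, with factors of 0.940 to 0.994 in ENR and 1.05 to 1.06 in Hyper libraries, turned the sign, so no direction is given for Nuak2.

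By the study's own clustering, stem and TA cells of Hyper-organoids lay in other clusters than those of ENR-organoids, so the comparisons within SC and within TA set cells of the same label, but not of the same cluster, side by side. Within the SC class, 2 members, Ptpn14 and F3, were called higher in Hyper than in ENR, beside 15.2% of 13920 genes, and 7 of 10 could be tested. Without the filter on low counts 5 members were called, beside 11.3% of 20780 genes. That fit also took in genes without a UMI in ENR SC, such as Axl and Ccdc80, so its count adds no support. Axl had 27 UMIs in Hyper SC and 31 in Hyper TA and none in ENR, at least 2.14-fold and 6.93-fold higher against a floor of 3 UMIs over the group. Ptpn14 was at 0.387, 0.973 and 0 CPM in ENR SC and at 5.12, 5.49 and 4.30 CPM in Hyper SC, 9.08-fold higher (log2 3.18 ± 0.51 SE, edgeR adjusted p = 0.000760). F3 was at 2.17, 3.97 and 1.83 CPM in ENR SC and 8.76, 8.32 and 10.8 CPM in Hyper SC, 3.16-fold higher (adjusted p = 0.000615). The groups did not overlap for either gene. Ajuba rose 1.95-fold in SC (edgeR adjusted p = 0.00370), just under the 2-fold limit. Crim1 fell to 0.702 of the ENR level (adjusted p = 0.00106). Against -VE, 3 members were called higher in SC beside 14.7% of genes, Ptpn14 at 8.59-fold (edgeR adjusted p = 0.00103), Tgfb2 at 5.22-fold (0.0486) and Ajuba at 2.06-fold (0.00353). Without -VE replicate 2 only 1 of these calls was left. Tgfb2 had 0, 0 and 6 UMIs in ENR SC and 3 and 9 in -VE SC. It passed the filter on low counts in SC only with the Hyper libraries, where it is high, so its call adds no support. Between -VE and ENR no member was called in SC by edgeR or DESeq2, where 0.23% and 0.537% of genes were called higher, and 1 member, F3, had an unadjusted p under 0.05, beside 17.7% of genes in either direction.

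Within the TA class 4 members were called higher in Hyper than in ENR, beside 17.2% of 14553 genes. Ptpn14 stood at 0.108, 0.161 and 0.0301 CPM in ENR TA, from 5, 9 and 1 UMIs, and at 3.92, 4.95 and 3.71 CPM in Hyper TA, 35.5-fold higher (log2 5.15 ± 0.34 SE, edgeR adjusted p = 7.56e-06). F3 went from 1.64, 1.64 and 1.27 CPM to 4.13, 3.89 and 4.83 CPM, 2.61-fold (adjusted p = 0.000319). Ajuba went from 2.00, 1.71 and 2.02 CPM to 4.84, 4.70 and 3.82 CPM, 2.17-fold (edgeR adjusted p = 0.000308). In these genes every Hyper value was above every ENR value of the class. Tgfb2 rose 3.34-fold (edgeR adjusted p = 0.0209), from 0.345, 0.107 and 0.121 CPM to 1.12, 0.497 and 0.447 CPM, and leaving out ENR replicate 2, ENR replicate 3 or Hyper replicate 1 brought its adjusted p to 0.0815, 0.0615 and 0.0620. Crim1 fell to 0.679 of its ENR level (edgeR adjusted p = 0.00106). Against -VE, Ptpn14 (10.9-fold, edgeR adjusted p = 9.35e-05) and Tgfb2 (4.52-fold, 0.0153) were called higher in TA, beside 15.5% of genes. Tgfb2 had 16, 6 and 4 UMIs in ENR TA and 10 and 14 in -VE TA. It passed the filter on low counts in TA only with the Hyper libraries, so its TA calls add no support.

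In the secretory and absorptive classes 4 to 6 of the 10 members could not be tested, and the counts of calls lay near the share over all genes. In goblet cells only Ptpn14 was called among 6 members tested, beside 10.7% of genes, with 0.569, 1.76 and 0.874 CPM in ENR and 4.10, 7.39 and 4.01 CPM in Hyper libraries (4.21-fold, edgeR adjusted p = 0.00486). Against -VE it was again the only member called in goblet cells, at 3.65-fold (adjusted p = 0.00986), beside 8.72% of genes, and leaving out either -VE library ended that call. Goblet Ptpn14 had 2, 9 and 3 UMIs in ENR, 7 and 20 in -VE and 25, 47 and 19 in Hyper libraries. It passed the filter on low counts only with the Hyper libraries, where it is high, so these goblet calls add no support. In enteroendocrine cells none of 4 members tested was called in either comparison, beside 5.96% of genes over ENR and 3.52% over -VE. At an unadjusted edgeR p under 0.05 there were 0 over ENR, beside 28.1% of genes in either direction, and 2 over -VE, Amotl2 and F3, beside 19.8%, and DESeq2 called 0 in both, beside 4.72% and 2.77% of genes. In enterocytes, where 2 Hyper libraries held 20 or more cells, no member was called over ENR by edgeR, beside 7.78% of genes, or by DESeq2, beside 7.58%. Nuak2 alone had an unadjusted p under 0.05 there, beside 35.4% of genes in either direction (1.87-fold, edgeR adjusted p = 0.0274). Nuak2 was called over -VE beside 5.12% of genes, at 2.21-fold (edgeR adjusted p = 0.0234), with 11.5 and 11.3 CPM in the 2 Hyper libraries used against 5.82 and 4.67 CPM, and this call was lost with culture series as a block (adjusted p = 0.0549) and without -VE replicate 2.

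**Figure D2:**
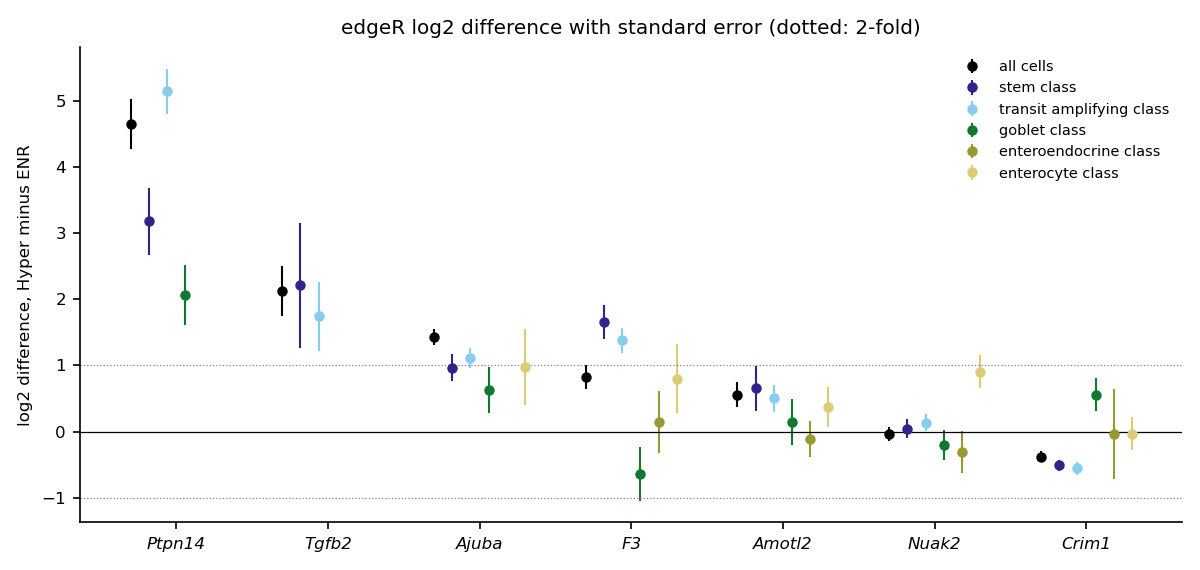
edgeR log2 difference between Hyper- and ENR-organoids with its standard error, over all cells and in 5 classes, for the 7 members with UMIs in both groups in enough libraries; dotted lines mark 2-fold. Ptpn14 is highest in every unit in which it was tested, F3 lies at 1.66 in SC and at -0.64 in goblet cells, and Crim1 lies below 0 in SC and TA.

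Whether the change itself differed between classes was tested with class by group terms over the 32 sums of SC, TA, GC and EE, for 7 members and 14555 genes. The 32 sums come from 8 libraries, and the fit had a term for each library, so that classes were compared within libraries. Its p-values still take the classes of a library to vary independently around the level of that library. The change of F3 in goblet cells differed from that in SC by log2 -2.29 (SE 0.48), with an edgeR adjusted p of 0.00188. Goblet F3 was at 3.98, 3.92 and 5.83 CPM in ENR and at 3.93, 4.09 and 1.06 CPM in Hyper libraries, so the goblet groups overlapped while those of SC did not. The change of Crim1 in goblet cells was higher than in SC by 0.99 (SE 0.30, edgeR adjusted p = 0.0286), and goblet Crim1 was at 9.95, 6.66 and 6.41 CPM in ENR and 12.5, 10.8 and 12.9 CPM in Hyper libraries. Leaving out any of ENR replicates 2 and 3 and Hyper replicates 1 and 3 brought the Crim1 value over the threshold. At this threshold 11.6% of all genes differed between GC and SC, 15.6% between EE and SC and 5.42% between TA and SC. No member passed in TA or EE. Without the filter on low counts 4 members differed in 1 or more classes, where 5.37% of genes differed in TA, 8.53% in GC and 10.7% in EE. The nearest was Ptpn14, whose change in TA exceeded that in SC by 1.963 (SE 0.60, edgeR adjusted p = 0.0544), with an ENR level in TA that rested on 15 UMIs.

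The level of a gene over all cells is the sum over classes of the share of UMIs in the class times the level in the class, so the rise can be shared out among classes. Of the Ptpn14 rise of 4.39 CPM, 50.6% was counted in TA and 41.2% in SC, with ranges of 48.7% to 53.0% and 40.5% to 42.5% when any library was left out. Of the Ajuba rise of 3.39 CPM, 55.9% was counted in SC and 46.7% in TA, and of the Tgfb2 rise of 0.688 CPM 50.0% and 42.3%. The EP part of Ajuba decreased by 0.404 CPM. SC and TA together held 91.8% of the Ptpn14 rise and 92.3% of the Tgfb2 rise. They gave 37.6% and 53.9% of Hyper UMIs, so these values are close to the joint part of both classes in Hyper UMIs. The value was 130% for Amotl2, 103% for Ajuba and 149% for F3, where parts of other classes decreased. It was 83.6% for Axl, 45.4% for Ccdc80 and 26.0% for Ankrd1.

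**Figure D3:**
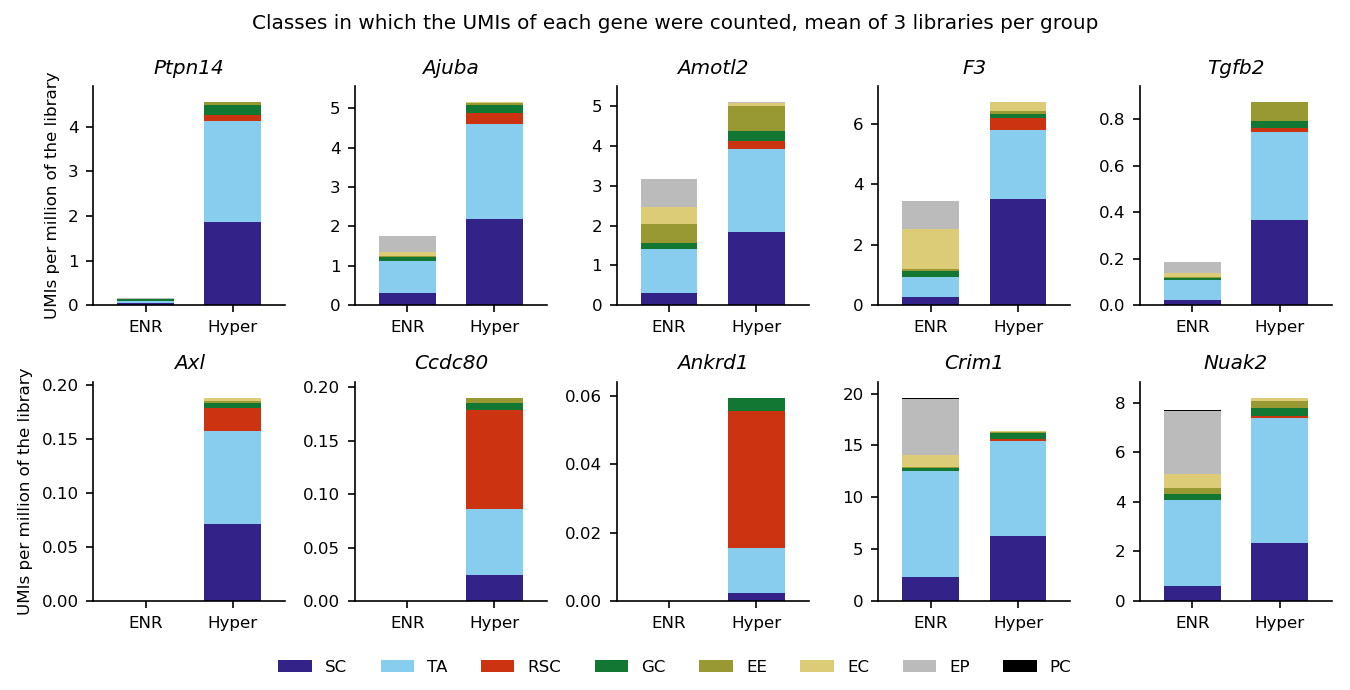
Classes in which the UMIs of each member were counted, in CPM of the library, as the mean of 3 ENR and 3 Hyper libraries. The Hyper bars of Ptpn14, Ajuba and Tgfb2 consist mostly of SC and TA, and those of Ccdc80 and Ankrd1 hold an RSC segment of 48.9% and 67.7%. The EP segment of Hyper bars is at most 0.0146 CPM, in Crim1.

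The SC class also made up more of the Hyper libraries, so its part was divided into a part at changed level and a part at changed share, at the mean of both groups. For Ptpn14 in TA, 2.00 of 2.22 CPM came with the level and 0.224 CPM with the share. For Ptpn14 in SC, 1.079 of 1.81 CPM came with the level. For Ajuba in SC the part with the level was 0.733 of 1.90 CPM and in TA 1.25 of 1.59 CPM. F3 rose less over all cells than in SC or TA. Its SC and TA parts grew by 4.86 CPM together, whereas the EC part decreased by 1.06 CPM and the EP part decreased by 0.927 CPM, and EC gave 9.64% of ENR UMIs and 1.03% of Hyper UMIs. For Crim1 the SC part grew by 3.93 CPM although its level fell in SC, with -1.26 CPM at changed level and 5.197 CPM at changed share.

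The revival stem class, which carries markers such as Clu, held more of the rare targets than its size. It gave 0.778% of Hyper UMIs, and 28 of 67 Ccdc80 UMIs (41.8%), 12 of 19 Ankrd1 UMIs (63.2%) and 8 of 70 Axl UMIs (11.4%). Hyper RSC levels were 15.0, 58.7 and 29.8 CPM for Ajuba, 11.2, 15.0 and 17.9 CPM for Ptpn14 and 26.2, 45.1 and 21.2 CPM for Amotl2. Each of these lay above the SC and TA level of its own library. Amotl2 in Hyper EE, at 32.0, 28.3 and 41.7 CPM, was above RSC in replicates 1 and 3. In -VE RSC the levels were 3.05 and 40.8 CPM for Ajuba, 9.16 and 1.63 CPM for Ptpn14 and 18.3 and 13.1 CPM for Amotl2. The Ankrd1 share depended on the library, as 0, 3 and 9 of the RSC UMIs were from Hyper replicates 1, 2 and 3, and RSC held 0%, 42.9% and 81.8% of the rise in the 3 culture series. Ccdc80 depended on the library as well, with 12.9%, 30.8% and 87.0% of the rise in RSC by series, since 20 of the 28 RSC UMIs were from Hyper replicate 3, where TA had none, while 19 of 26 TA UMIs were from Hyper replicate 1. F3 in RSC was at 244 and 315 CPM in the -VE and 101, 43.6 and 48.3 CPM in the Hyper libraries, and RSC gave 20.0% of all -VE F3 UMIs. These sums rest on 5 to 26 cells a library and no test was made.

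**Figure D4:**
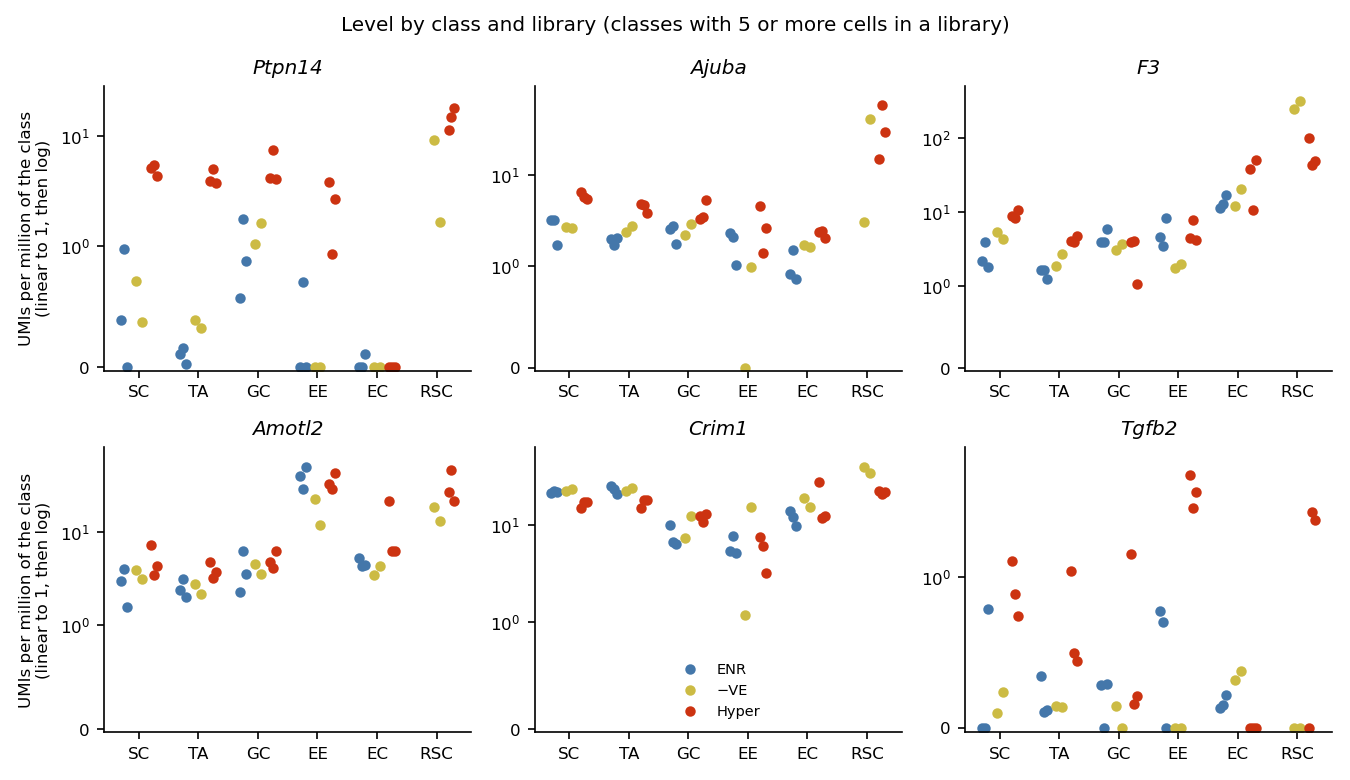
Level of 6 members by class (CPM of the class, axis linear to 1 and logarithmic above), with 1 point per library that held 5 or more cells of the class. F3 reaches 315 CPM in -VE RSC, Amotl2 is high in EE in all groups, and Ptpn14 is at 0 in EC of the 3 Hyper libraries.

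Each member had its own order of classes. Amotl2 was highest in enteroendocrine cells among the classes common to all groups, at 39.6, 28.1 and 49.3 CPM in ENR, 22.2 and 11.9 CPM in -VE and 32.0, 28.3 and 41.7 CPM in Hyper libraries, while its SC and TA levels stayed at or under 7.15 CPM. The ENR and Hyper values in EE overlapped, with a log2 difference of -0.11 and a 95% interval of -0.64 to 0.42. Nuak2 was likewise highest in EE, with 16.3 to 24.6 CPM in ENR. F3 was highest in enterocytes outside RSC, at 11.5, 12.7 and 17.1 CPM in ENR and at 37.6, 10.7 and 50.3 CPM in Hyper libraries, of which the first rests on 7 cells. Ptpn14 had no UMI in the enterocytes of any Hyper library, which with 3 UMIs over the group allows up to 0.782 CPM, against 3.71 to 5.49 CPM in SC and TA. Tgfb2 in EE was at 0.777, 0.703 and 0 CPM in ENR and at 5.65, 3.25 and 4.23 CPM in Hyper libraries, from 2 and 30 UMIs, a ratio of 8.24 with a counting interval of 2.09 to 71.2. These orders of classes are descriptions, since the classes were made from the same cells and genes.

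Counted per cell after thinning every cell to 10000 UMIs, more Hyper than ENR cells had a UMI. At levels of a few CPM nearly every UMI lies in a cell of its own, so these percentages restate the levels. In SC, 0.316%, 1.27% and 0% of ENR cells and 5.55%, 4.72% and 2.71% of Hyper cells had a Ptpn14 UMI, and unthinned 1.55%, 3.15% and 0% against 17.2%, 15.3% and 13.6%. In TA, 0%, 0.100% and 0% of ENR and 4.18%, 4.00% and 3.88% of Hyper cells did. F3 was seen in 0.949%, 1.59% and 0.439% of ENR SC and 7.43%, 6.16% and 8.36% of Hyper SC.

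Of a wider list of 13 other YAP/TAZ targets, 12 could be tested over all cells and 8 were called higher in Hyper than in ENR and none lower, beside 18.2% of all genes called higher, with a median log2 difference of 2.55 against -0.01 over all genes. Among them were the matricellular gene Ctgf (0.648, 0.789 and 0.550 CPM in ENR, 3.05, 4.33 and 3.90 CPM in Hyper, 5.18-fold, edgeR adjusted p = 3.43e-05), the growth-factor binding protein Igfbp3, Fjx1, Rbms3, Arhgef17, Myof, Nt5e and Lats2. Cyr61, the companion of Ctgf, was at 24.6, 26.8 and 18.5 CPM in ENR and 60.1, 27.4 and 28.2 CPM in Hyper libraries and did not pass (edgeR adjusted p = 0.135). In SC 7 of 12 were called higher, beside 15.2% of all genes, and in TA 8 of 12, beside 17.2%. In goblet cells 5 of 9 were called higher and 1 lower, beside 10.7% of genes called higher and 2.64% lower, in enteroendocrine cells 3 of 9, beside 5.96%, and in enterocytes 1 of 6, beside 7.78%. The largest changes over all cells were those of Fjx1 (76.2-fold) and Igfbp3 (72.5-fold). Which genes of this list passed the filter on low counts only with the Hyper libraries was not checked, so these counts are descriptions. Dock5 fell to 0.706 of its ENR level (edgeR adjusted p = 0.00317).

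Of 19 genes of the pathway itself, 6 were called higher over all cells and none lower, beside 18.2% of all genes called higher, with a median log2 difference of -0.07. The 6 were Wwtr1, Tead2, Tead4, Lats2, Amotl1 and Vgll3. Lats2 is also on the list of other targets and is counted in both. Which of these genes passed the filter on low counts only with the Hyper libraries was not checked, so this count is a description too. Wwtr1, which encodes TAZ, was at 2.04, 1.68 and 2.14 CPM in ENR, 2.39 and 2.16 CPM in -VE and 15.6, 13.4 and 13.9 CPM in Hyper libraries, 6.71-fold over ENR (edgeR adjusted p = 2.55e-06). Yap1 was at 37.5, 35.6 and 32.3 CPM in ENR and at 34.7, 34.9 and 29.7 CPM in Hyper libraries, 0.863 of its ENR level (edgeR adjusted p = 0.0330). Yap1 was lower in Hyper in each of the 3 culture series and was not called at 2-fold. With culture series as a block its edgeR adjusted p was 0.00575, and without ENR replicate 1, ENR replicate 2, Hyper replicate 3 or -VE replicate 1 it was 0.106, 0.0893, 0.0799 and 0.0506. Of the TEAD factors, Tead2 rose 7.03-fold and Tead4 8.11-fold (edgeR adjusted p = 1.40e-05 and 4.12e-05), Tead1 1.35-fold (edgeR adjusted p = 0.00235), and Tead3 did not pass (edgeR adjusted p = 0.354). Lats2 rose 3.67-fold while Lats1 fell to 0.719 (edgeR adjusted p = 0.000183 and 0.000823). Amotl1, the angiomotin next of kin to Amotl2, was at 0.185, 0.195 and 0.0785 CPM in ENR and 15.2, 24.7 and 19.4 CPM in Hyper libraries.

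Patterns close to those of the members were looked up over the 32 class-by-library sums, among 14554 other genes. Closest to Ptpn14 were Tnfrsf22, Espn and Stk26 (Pearson r of log2(CPM + 1) 0.92, 0.92 and 0.91), to Amotl2 Abcg1, Gadd45a and Pcp4 (0.97 each), and to Ajuba Adora1, S100a11 and Fdx1 (0.84 to 0.80). F3 had no close companion, its nearest being Crybg2 at 0.70. The sums of a library share its depth and handling, and these values are descriptions.

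In colonic crypts there was 1 library a group, with 1132 cells from normal and 1933 from DSS-treated mice, and no test was possible. F3 was the most abundant member, at 63.5 CPM in normal (exact Poisson 95% interval 60.0 to 67.1) and 103 CPM in DSS crypts (99.3 to 106). Crim1 was at 15.6 CPM (13.9 to 17.4) in normal and 20.7 CPM (19.2 to 22.4) in DSS crypts. Amotl2, at 15.1 and 11.9 CPM, and Nuak2, at 22.4 and 16.5 CPM, were lower in the DSS library. The intervals of Ajuba (1.56 and 1.98 CPM) and Ptpn14 (0.954 and 1.30 CPM) overlapped between the libraries, Tgfb2 had 3 and 6 UMIs and Ankrd1 none in either.

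Only Axl passed 2-fold on the log2(CPM + 1) scale, beside 3.55% of 12440 genes that were at least 2-fold higher in DSS. It had 2 UMIs in normal and 61 in DSS crypts. Of the 61, 46 were in cluster 21, with 20 DSS cells and 20974 CPM of macrophage markers, and 15 in cluster 18, with 33 DSS cells, 10237 CPM of fibroblast markers and 4147 CPM of leukocyte markers, and 63.6% of its cells held a Ptprc UMI. Both clusters are named here after their values were seen. Without the cells that held a UMI of the leukocyte gene Ptprc, the Axl count in DSS crypts was 14 and the log2 difference was 0.47 in place of 1.39, under 2-fold. With a pseudocount of 5 CPM it was 0.43, also under 2-fold. Ccdc80 had 13 UMIs in normal and 44 in DSS crypts, of which 13 and 38 were in cluster 18.

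Among epithelial clusters with cells from both libraries, F3 was at 87.8 CPM in normal and 130 CPM in DSS crypts in cluster 2, the cluster the authors labelled stem, and at 89.4 and 114 CPM in cluster 1. In cluster 6, with 64 normal and 157 DSS cells, it was the other way round, at 40.4 CPM (exact Poisson 95% interval 30.8 to 52.0) in normal and 25.9 CPM (20.7 to 31.9) in DSS crypts, with intervals that overlapped. In cluster 4, with 230 DSS and 11 normal cells, it was at 213 CPM in the DSS and 105 CPM in the normal library. Ptpn14 in cluster 2 was at 2.85 and 3.50 CPM from 7 and 12 UMIs, and Ajuba at 4.06 and 4.08 CPM from 10 and 14 UMIs. The counting intervals of both overlapped between the libraries.

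**Figure D5:**
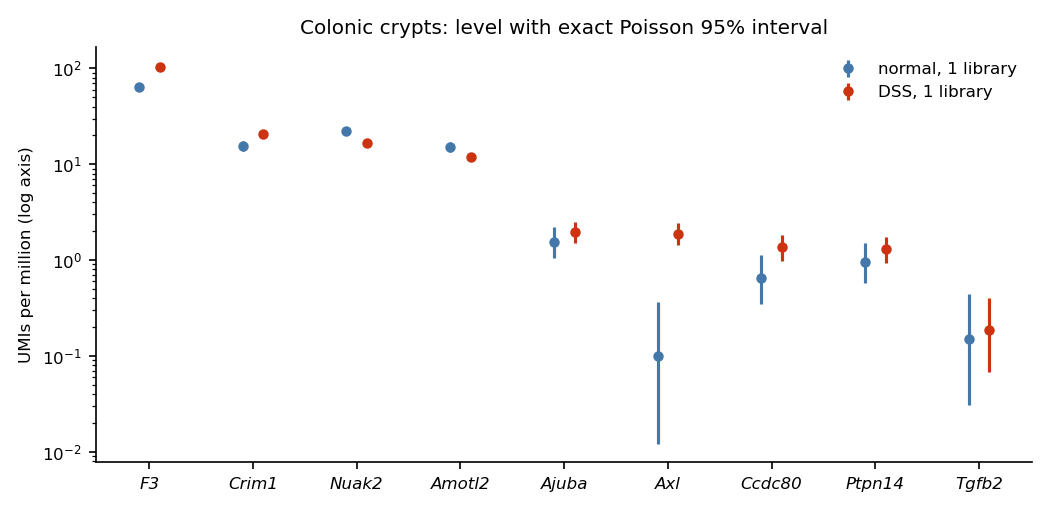
Level of 9 members in the normal and DSS library of colonic crypts (CPM, logarithmic axis), with exact Poisson 95% intervals that cover counting error only. F3 is highest in both libraries and Axl is 0.100 CPM in normal and 1.88 CPM in DSS crypts; Ankrd1, with no UMI, is not drawn.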

How the data were processed

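UMI counts per gene and cell, as deposited by the authors with their table of kept cells and class labels, were used without change. Per the labels, libraries were made with 10x Genomics 3' chemistry, and the submitters' processing notes name Cell Ranger 3.0.0, Seurat 3.1.4 and mm10. The study states a minimum of 1500 genes per cell, while 1375 of the 25204 kept cells have fewer. Doublets were not called here.

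Counts were summed per library and class, for classes of at least 20 cells. Sums were tested with edgeR 4.0.16 (quasi-likelihood test, TMM, filterByExpr, all 3 organoid groups in the fit, R 4.3.3), with Benjamini-Hochberg adjustment over all genes. A call needed an adjusted p under 0.05 and at least 2-fold. Alternatives were DESeq2 1.42.0, no filter on low counts, a replicate block, other sets of cells and leaving out each library. Colonic crypts had 1 library a group and were compared as log2(CPM + 1) without a test.

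Replicate numbers marked culture series. Deviations of same-numbered ENR and Hyper libraries from their group means correlated at 0.277, 0.218 and 0.545 over 15275 genes. For ENR and -VE the values were 0.158 and -0.00389, and for -VE and Hyper 0.203 and 0.135. The numbers were taken to pair these samples. The main fit had no term for culture series, which was a block only in an alternative. Nothing says that libraries came from separate animals, so p-values measure the spread between these samples. The members and gene lists were chosen with earlier results of these data known. The genes named are the 10 members, genes of both lists, and for each member of at least 1 CPM the genes with the highest correlation.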

Additional observations from a re-analysis of the deposited data

Results flagged for a closer look

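In 2 members the Hyper to ENR change differed between classes by a class by group term in edgeR, fitted with a term for each of the 8 libraries, and both differences were between goblet cells and SC, where 11.6% of all 14555 genes differed. Without the filter on low counts 4 members differed between classes, beside 5.37% of genes in TA, 8.53% in GC and 10.7% in EE. For F3 the change in goblet cells minus that in SC was -2.29 on the log2 scale (edgeR adjusted p = 0.00188). For Crim1 it was 0.99 (edgeR adjusted p = 0.0286), and this value passed the threshold less firmly, as leaving out any of 4 libraries ended it.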

How the results depend on the processing

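The 550 recomputed values of single genes came from 41 results with an edgeR adjusted p under 0.05 in the main fit. All 550 kept their direction, and 498 kept an adjusted p under 0.05. Results that did not pass in the main fit, such as Nuak2 over all cells, were left out. Genes chosen this way were likely to keep their direction, so these counts add no support. Without a filter on low counts, 5 members in place of 2 were called in SC over ENR, beside 11.3% of genes. In enteroendocrine cells 1 in place of 0 was called over ENR and 1 in place of 0 over -VE. The share over all genes in these enteroendocrine fits is not given here. In the same setting 4 members in place of 2 differed between classes, beside 5.37% of genes in TA, 8.53% in GC and 10.7% in EE. These fits took in genes with few or no UMIs outside Hyper libraries, so their counts add no support. With culture series as a replicate block, the count in enterocytes over -VE went from 1 to 0, and no other count of calls changed by over 1.5 times. DESeq2 called 1 member in place of 0 between -VE and ENR, beside 1.93% of genes. Without the 5% of cells with the most UMIs, TA held 39.0% of the Tgfb2 rise in place of 42.3% and SC held 42.9% of the Axl rise in place of 38.2%. In colonic crypts the count past 2-fold went from 1 to 0 without cells with a Ptprc UMI and also with a pseudocount of 5 CPM. The causes of these shifts were not tested.

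Leaving out 1 library gave over ENR counts of 5 to 5 over all cells, 2 to 3 in SC, 3 to 5 in TA, 1 to 1 in goblet cells, 0 to 1 in enteroendocrine cells (1 without -VE replicate 1) and 0 to 1 in enterocytes (1 without Hyper replicate 2). Over -VE the counts were 4 to 4, 1 to 3 (1 without -VE replicate 2), 2 to 3, 0 to 1 (0 without -VE replicate 1 or 2), 0 to 0 and 0 to 1 (0 without -VE replicate 2) in the same order. Between -VE and ENR they were 0 to 1 over all cells (1 without ENR replicate 2). The counts over ENR and over -VE take in calls that, as said above, add no support. These are Axl and Ccdc80 over all cells, Tgfb2 in SC and TA, and Ptpn14 in goblet cells. The share over all genes without single libraries is not given here, so these ranges are descriptions. From 1 to 3 members differed between classes (1 without ENR replicate 3 or Hyper replicate 3). SC held 46.2% to 59.9% and TA 33.6% to 46.6% of the Tgfb2 rise, and RSC held 18.1% to 72.1% of the Ccdc80 rise. Enterocyte values with 1 Hyper library left assume that it varies like the other groups.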
